A study of Mus musculus with 4 samples.

Results

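Control RNA from area CA1 of the mouse hippocampus at 4 h and 6 h was compared with control RNA at 1 h, with 1 sample and 1 Affymetrix array per hour, so 3 of the 4 samples of the series were used. The animals were C57BL/6J males, an inbred strain, taken young, handled and given no other treatment. The hour is the time from the last shock of the treated mice, which are not analysed here, to the taking of control RNA. The labels do not say whether a sample is 1 mouse or a pool. The 2 h array was left out of the comparison, and its values are printed only beside selected genes and control probes. Values below are the deposited intensities of single probe sets, and levels of different probe sets are not set against each other. The tissue is a dissection of mixed cell types, so fewer cells of a type and less RNA per cell cannot be told apart.

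CA1 is the output field of the hippocampal circuit, where pyramidal neurons receive CA3 input, and it is needed for contextual memory. Its RNA also holds transcripts of interneurons, astrocytes, oligodendrocytes, microglia and vessels. Control samples of this kind serve as the reference for a learning experiment, and many brain transcripts vary with the time of day, arousal and handling. The comparison asks which transcripts separated the 1 h control from the later controls.

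A probe set was counted when the 4 h and the 6 h array lay on the same side of the 1 h array and each differed from it by more than the 4 h and 6 h arrays differed from each other, on the log2 scale. Of 12422 probe sets other than manufacturer controls, 4878 passed the filter on low signal, a mean of at least 285.8, and covered 3930 genes with a single symbol. The remaining 7544 were not compared. By this rule 861 probe sets were higher at the later hours, 17.7% of those tested, and 831 were lower, 17.0%. The edge of the rule ran between Ptk2b, counted with signals of 3686, 4014 and 4371 at 1, 4 and 6 h, and Prss12, not counted with 361, 466 and 410.

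The 1 h array was not the only one that stood apart in this sense. Of any 3 values, short of a tie, exactly 1 lies farther from the rest than these lie from each other. By arithmetic alone, 1 of the 3 arrays thus stood apart for each tested probe set. This was the 1 h array for 34.7% of probe sets, the 4 h array for 33.9% and the 6 h array for 31.4%. Arrays that vary alike would share the probe sets about equally. The SD of the log2 difference across probe sets was 0.367 between the 4 h and 1 h arrays, 0.355 between 6 h and 1 h, and 0.364 between 6 h and 4 h. The count by the rule is therefore a description of these arrays, with no replicate of the 1 h array behind it.

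**Figure D1:**
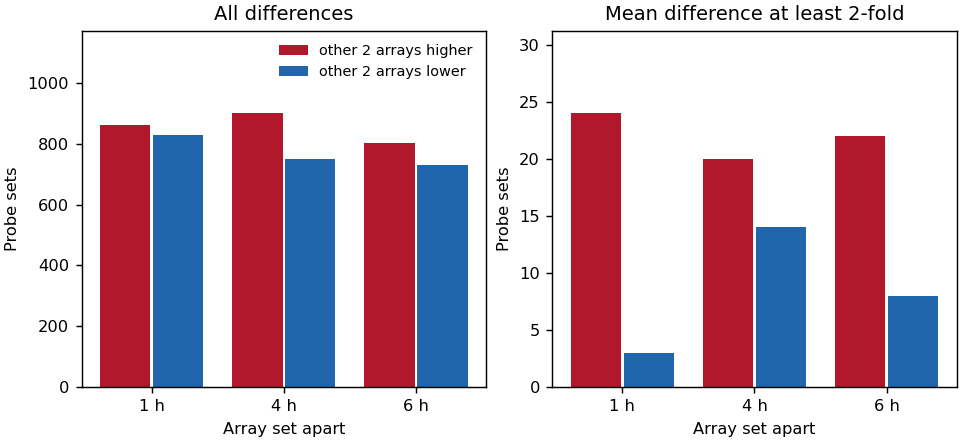
Number of tested probe sets for which the 1 h, 4 h or 6 h array stood apart from the other arrays, by whether those were higher (red) or lower (blue); the right panel counts mean differences of at least 2-fold. The 3 arrays stood apart for 1692, 1652 and 1534 probe sets, and at least 2-fold lower values in the other arrays were fewest for the 1 h array.

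Most differences were small. The median size among the counted probe sets was 1.23-fold, 87.8% lay within 1.5-fold, and 27 reached 2-fold on the mean of the later arrays. Of these 27, 24 were higher later, 0.492% of those tested, and 3 were lower, 0.0615%. The 4 h array set apart in the same way gave 20 and 14, and the 6 h array 22 and 8. Of the 24 and 3 set against 1 h, 18 and 2 came from the 1626 dimmest tested probe sets, with mean signals of 285.8 to 529, where the 4 h and 6 h arrays also differed most from each other (median 0.28 log2, against 0.15 in the 1626 brightest). The 1 h array had a lower median signal, 172.9 against 186.5 and 190.4 at 4 h and 6 h, although the trimmed means of the arrays were all 499.9. When each array was centred on its median, the median later difference over the tested probe sets moved by -0.12 log2. The array medians were taken over all probe sets and lay under the filter value of 285.8, so probe sets not compared bore on this shift. The split became 440 higher and 1353 lower, with 15 and 11 at least 2-fold. This split, of 4880 probe sets, is the background for the list counts after median centring given below.

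**Figure D2:**
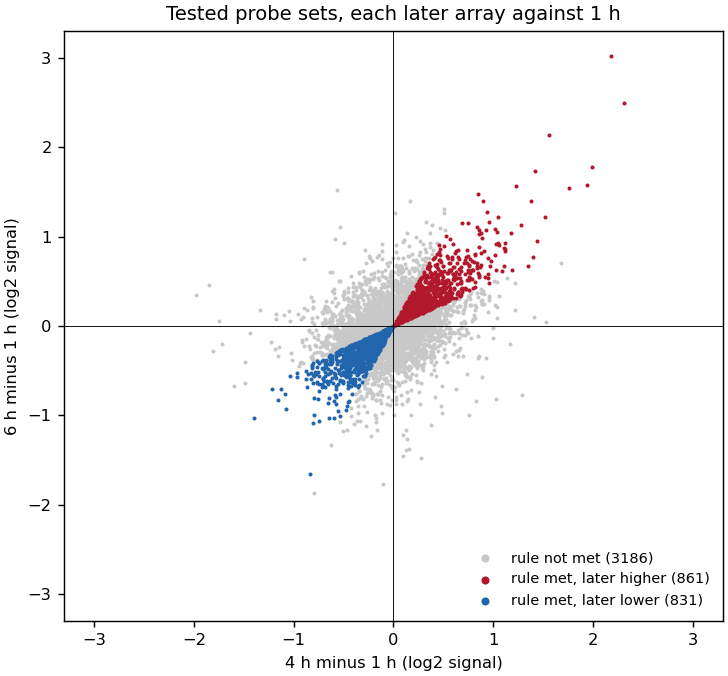
Log2 difference from the 1 h array at 4 h (x axis) and 6 h (y axis) for the 4878 tested probe sets, with those counted by the rule in red (861 higher) and blue (831 lower). Both axes share the 1 h array, so points spread along the diagonal by construction; the few points past 2 log2 are all in the upper right.

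The Gapdh and spike-in control probes of the arrays were similar at the 3 hours, but the beta-actin ratio was higher in both later arrays. For Gapdh the 3' probe set read 4.10, 3.62 and 3.95 times the 5' one at 1, 4 and 6 h, a ratio that grows as RNA degrades, and for beta-actin 2.27, 2.59 and 2.93 times. On the 2 h array, not part of the comparison, these ratios were 1.08 for Gapdh and 1.72 for beta-actin. The 9 spike-in probe sets had 1.03, 1.04 and 0.936 times their mean at 1, 4 and 6 h. Markers of CA1 tissue were present: the pyramidal marker Wfs1 had signals of 2293, 2484 and 2508, and Snap25, of the synaptic fusion machinery, had 18421, 19821 and 19356. Both were counted as higher, by 0.12 and 0.09 log2, and turned to values just below 0 after median centring. The dentate granule marker Prox1, with 57.9, 17.8 and 18.2, was below the filter.

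limma, with the 4 h and 6 h arrays as a later group of 2 samples and 1 residual degree of freedom, called 4 of 4878 probe sets at a Benjamini-Hochberg adjusted p under 0.05, 0.0820% of those tested, all higher later. The test assumes that the lone 1 h array varies like the later arrays. In 3 of the 4 calls the 1 h signal itself lay under the filter value of 285.8, so these probe sets were tested only because their later signals were high. All 4 calls met the rule, which uses the same signals, and 2 carried a single gene symbol. At an unadjusted p of 0.05, 288 probe sets passed, 150 higher and 138 lower.

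Nbl1, a secreted antagonist of bone morphogenetic proteins, had a signal of 104.6 at 1 h, 518 at 4 h and 590 at 6 h. Its later mean was 2.40 ± 0.39 log2 above 1 h, and limma called it. The SE given here is that of limma, drawn mostly from other probe sets (16.8 prior against 1 residual degree of freedom). Dcaf12, a substrate receptor of a cullin ubiquitin ligase, had 222.5, 657 and 979.5, a difference of 1.85 ± 0.32 log2 with a limma adjusted p of 0.0247. For both genes the 2 h array was high as well, with 694 for Nbl1 and 1469 for Dcaf12. This was not so for every higher gene: Kat2a, given below, had 109.2 at 2 h against 218.5 at 1 h. Each was measured by a single probe set. The other calls were a pair of probe sets with no single gene symbol here, with signals of 102.2, 463 and 827 and of 289, 1111 and 867 and a limma adjusted p of 0.0129 each. limma called 0 probe sets after quantile normalization, after median centring, with one variance prior for all probe sets, or with the 2 h array added to the earlier group.

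The next largest higher differences were of genes with unlike roles. Atp2b2, the plasma membrane calcium pump PMCA2, had signals of 317, 911 and 742 at 1, 4 and 6 h, 1.37 log2 above 1 h with a limma adjusted p of 0.0931. Btbd3, which orients dendrites toward active inputs, had 193.8, 503 and 510, and there the later arrays nearly coincided. Synrg, which binds the clathrin adaptor AP-1, had 189.8, 446.5 and 565, and Ginm1 had 138.4, 371 and 460. Kat2a, the histone acetyltransferase GCN5, had 218.5, 530 and 478. Sgpp1, a phosphatase of sphingosine 1-phosphate, had 212.6, 382 and 595, so its later arrays were farther apart. The 1 h signal lay under the filter value in all of these genes but Atp2b2, and limma passed none of them.

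For some of the strongest differences a second probe set gave another picture. Pex14, a docking protein of peroxisomal import, had 120.9, 479 and 416 on its dimmest probe set but 1268, 1299 and 1416 on a brighter one and 2522.5, 2489 and 2413 on the brightest. Dnajc3, a co-chaperone of the endoplasmic reticulum, had 191.3, 520 and 371 on a probe set with an incomplete probe selection, but 369, 358 and 449 on its plain one. Among the lower genes, Ddx17, an RNA helicase, had 1034, 593 and 518.5 against 1788, 2021 and 1774, and Dynlrb1, a dynein light chain, had 3752, 1677 and 2112 against 606, 753 and 639. Itgb1, the integrin beta 1 subunit, had 1415, 665 and 838 against 276, 256 and 355.

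The largest lower differences with a plain probe set were those of 2 transcription factors. Hand1, a helix-loop-helix factor known from heart and placenta, had signals of 655, 366 and 207, which is 1.25 log2 lower on the mean, with later arrays that differed by 0.82 log2. It no longer met the rule after quantile normalization. Tbr1, a T-box factor of glutamatergic neurons, had 1920, 911 and 1008.5, which is 1.00 log2 lower, with a limma adjusted p of 0.135. St3gal4, a sialyltransferase, had 830, 476 and 390, and Birc6, a large ubiquitin ligase that inhibits apoptosis, had 522, 311 and 250. limma passed none of the lower probe sets with the filter at the 60th percentile. With it at the 80th percentile, where limma gave probe sets of like signal the same variance, it called 3 lower probe sets, of Tbr1, Dynlrb1 and Hk1, with adjusted p of 0.013, 0.000645 and 0.0209, and 6 higher ones.

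**Figure D3:**
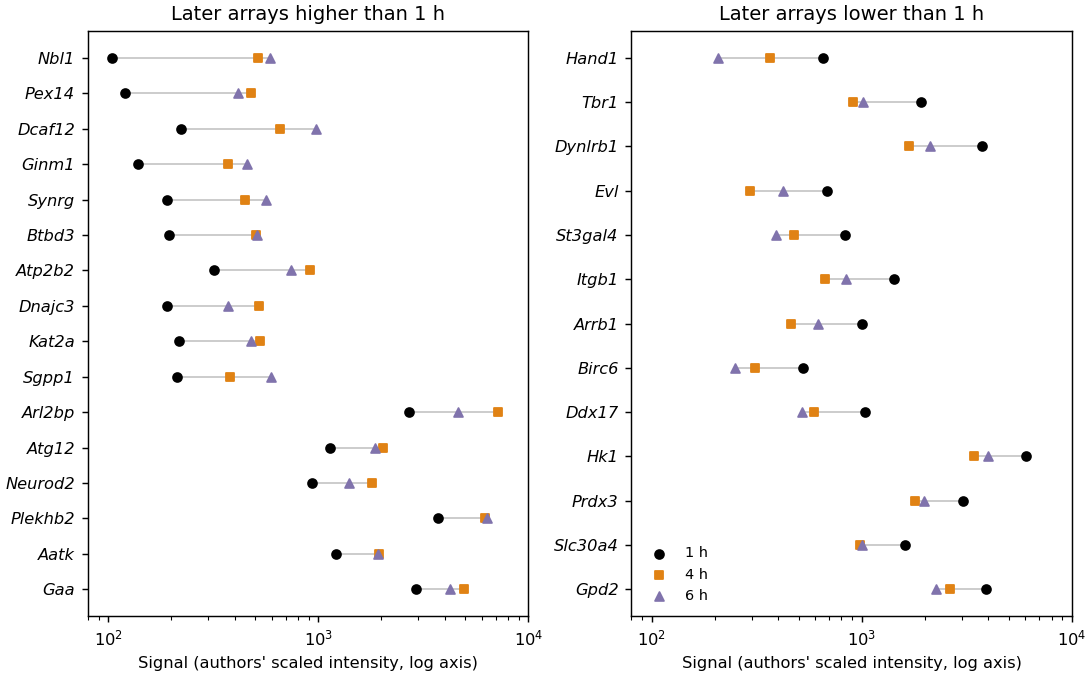
Signal at 1 h (black circles), 4 h (orange squares) and 6 h (purple triangles), 1 array each and on a log axis, for named probe sets with the largest differences among all tested and among the 1626 brightest. By the rule, the 1 h array lies outside the later arrays in each, from Nbl1 (104.6 against 518 and 590) to Gpd2 (3920 against 2630 and 2264).

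Among the 1626 brightest probe sets, with mean signals of at least 1144, the differences were smaller, and the later arrays lay closer together. Arl2bp, a partner of the GTPase ARL2, had signals of 2717, 7163 and 4623, 1.08 log2 higher with a limma adjusted p of 0.0678. Plekhb2, a membrane traffic protein, had 3709, 6219 and 6371. Atg12, a ubiquitin-like protein of autophagy, had 1143, 2041 and 1867, and Gaa, the lysosomal glucosidase of glycogen, had 2915, 4967 and 4221. Neurod2, a factor of excitatory neurons, had 931, 1794 and 1398, and the kinase gene Aatk had 1211, 1937 and 1919. Of these 6 genes, limma called Arl2bp and Plekhb2 with the filter at the 80th percentile, and none with it at the 60th. At the 80th percentile limma gave probe sets of like signal the same variance. The spread of a probe set's own later arrays, as between 7163 and 4623 for Arl2bp, did not enter there.

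The bright lower group held Tbr1 and Dynlrb1, given above, and 4 others. Hk1, the hexokinase of neurons, had 6034, 3404 and 3995, which is 0.71 log2 lower with a limma adjusted p of 0.238. Gpd2, the mitochondrial glycerol phosphate dehydrogenase, had 3920, 2630 and 2264 on a shared probe set, and Prdx3, the mitochondrial peroxiredoxin, had 3041, 1783 and 1974. Slc30a4, a zinc transporter, had 1600, 983 and 1002. limma called Hk1 of these 4 at the stricter filter only.

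Genes with several tested probe sets allow a comparison within the same RNA. There were 445 such genes, and 266 of them had at least 1 probe set counted by the rule. In 28 genes all probe sets were counted in one direction, 13 higher and 15 lower, while 16 genes had probe sets counted in both directions. Over 366 pairs of a counted probe set with another of its gene, the other had the same sign in 58.2%, met the rule the same way in 19.7% and met it the opposite way in 8.74%. The rule's shares over all tested probe sets, 17.7% and 17.0%, are the background for the last pair of values. The 19.7% lies near them. No background was computed for the 28 and the 16 genes, so the 28 are not shown to exceed what unrelated probe sets would give.

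Scn1a, a voltage-gated sodium channel, was the gene whose probe sets agreed most closely. It had signals of 1933, 1225 and 1234 at 1, 4 and 6 h on its brighter probe set and 680.5, 419 and 443 on the dimmer, which is 0.65 and 0.66 log2 lower. Zfp106, an RNA-binding zinc finger protein, was higher on both, with 325, 571 and 535 and with 437, 791.5 and 651. Gna11, a G protein subunit that activates phospholipase C, had 469, 852 and 960 on one and 1396, 1627 and 1666.5 on the other. Stat5a, a cytokine-activated transcription factor, had 545, 434 and 385 and then 454, 314 and 268. Thra, the thyroid hormone receptor alpha, was higher on both, with 10550, 12597 and 14968 on the brighter. Arrb1, the beta-arrestin 1 gene, had 587, 484 and 424 and then 1004.5, 460 and 615, and Evl, an actin regulator, had 631, 515 and 451 and then 685, 293 and 419. These genes were chosen for meeting the rule on each probe set, and limma passed none of them.

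Oxidative phosphorylation genes, whose products form the mitochondrial respiratory chain and ATP synthase, were the largest list. Of 54 measured genes 18 were lower by the rule, 6 were higher and 30 did not meet it, against 17.0% and 17.7% of all probe sets. With the filter at the 80th percentile 47 of the 54 remained. Of the 1626 brightest probe sets 344 were lower and 272 higher, and of the 1626 dimmest 218 and 324. The median difference of the 54 genes was -0.10 log2 on the mean of the later arrays, -0.11 at 4 h and -0.05 at 6 h, against -0.01 over all genes tested. The split of the 54 genes was 12 lower and 6 higher after quantile normalization and 30 lower and 2 higher after median centring. Over all probe sets it was 765 lower and 857 higher of 4876 after quantile normalization. After median centring it was 1353 lower and 440 higher of 4880. limma called 0 of the 54 genes, and 2 of the 3930 tested.

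In ATP synthase 7 of 9 measured subunits were lower and 0 higher. Complex I had 7 lower and 3 higher of 24, complex III 2 and 2 of 8, cytochrome c oxidase 1 and 1 of 8, and complex II 1 and 0 of 4. The division by complex was made after the values were seen, and over all probe sets 17.0% were lower and 17.7% higher. Atp5o, the peripheral stalk subunit OSCP, had signals of 4969, 3935 and 3473 at 1, 4 and 6 h. Atp5k, a small membrane subunit, had 635, 483 and 492. Atp5c1, the rotating gamma subunit, had 8744, 7095 and 7590, and Atp5a1, the alpha subunit of the catalytic head, had 11646, 10909 and 10545. Atp5g2, which encodes the c subunit of the rotor ring, had 637, 613 and 611, a difference of only -0.06 log2. The 1 h array was the highest in all of these, by margins that shrink toward the last.

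Outside ATP synthase the widest lower differences were those of Uqcr11, a small subunit of complex III, with 5448, 3764 and 3552.5, and of the complex I genes Ndufc1, with 5117.5, 4140 and 3730, and Ndufs3, with 3851.5, 2792 and 3257. Uqcrh, the hinge protein of complex III, lay between them with 5927, 4434 and 4829. Sdha, the catalytic subunit of complex II, had 776.5, 619 and 668. Ndufa9 and Ndufa10, of complex I, were among the higher members, with 1717, 1971 and 2137.5 and with 649, 728 and 749. Uqcrc1, a core protein of complex III, was also higher, with 2116, 2315 and 2452. The subunits of 1 complex thus did not all lie on the same side of 1 h.

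Many nuclear genes of the respiratory chain are targets of the transcription factor NRF1, whose recognition sequence is a GC-rich palindrome. Its core, written here as GCGCNTGCGC and searched on both strands, was looked for in the RefSeq promoter windows of build GRCm38.p6, which run from 250 bases before to 50 after each gene's start. It was present in 8 of the 16 lower genes with a window, 2 of 22 that did not meet the rule and 1 of 4 higher ones. Over all measured members of the list with a window it was present in 11 of 42, 26.2%, and over all 27025 genes in 5.19%. The motif was chosen after the values were seen, so this split is not a test. These matches describe letters, not binding, and a part of NRF1 in the lower signals was not tested. The stretches of 80 bases upstream of the start of 4 of the lower genes, shown so that the match can be compared between them, read as follows on the gene's strand, with the match in capitals.
Atp5k, chr5:108434405-108434484: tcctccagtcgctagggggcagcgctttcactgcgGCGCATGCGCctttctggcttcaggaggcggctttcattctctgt
Atp5g2, chr15:102671048-102671127: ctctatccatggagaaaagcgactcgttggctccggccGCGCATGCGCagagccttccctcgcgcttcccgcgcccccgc
Atp5c1, chr2:10080433-10080512: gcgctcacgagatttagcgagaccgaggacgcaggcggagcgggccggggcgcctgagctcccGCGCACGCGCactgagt
Sdha, chr13:74350294-74350373: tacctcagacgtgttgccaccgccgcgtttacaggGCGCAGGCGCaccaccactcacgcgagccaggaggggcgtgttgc
All 4 genes lie on the minus strand. The match ends 41, 33, 8 and 89 bases before the start in Atp5k, Atp5g2, Atp5c1 and Sdha. Their lower differences ranged from -0.38 log2 for Atp5k to -0.06 for Atp5g2, so genes with the same 10 letters differed in size.

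Cytosolic ribosomal protein genes, which build the ribosome, also had more lower than higher members. Of 23 measured genes 9 were lower by the rule and 1 higher, against 17.0% and 17.7% of all probe sets, with a median of -0.09 log2 at 4 h and -0.08 at 6 h. With the filter at the 80th percentile 21 of the 23 genes remained. The 1626 brightest probe sets, 344 lower and 272 higher, are a nearer background. For the 23 genes the counts were 7 lower and 0 higher after quantile normalization and 14 lower and 1 higher after median centring. Median centring gave 1353 lower and 440 higher of all 4880 probe sets. Rps7 had signals of 13639, 10256 and 10777 and Rps3a1 had 14820, 11064 and 12051, about 0.36 to 0.38 log2 lower. Rpl19 was the higher member, with 16924, 18847 and 19449. Rpl10a was lower on both of its probe sets, with 2623, 2291 and 2352 on the brighter one. Ribosomal protein genes have many processed pseudogenes, so a probe set may read more than 1 copy.

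**Figure D4:**
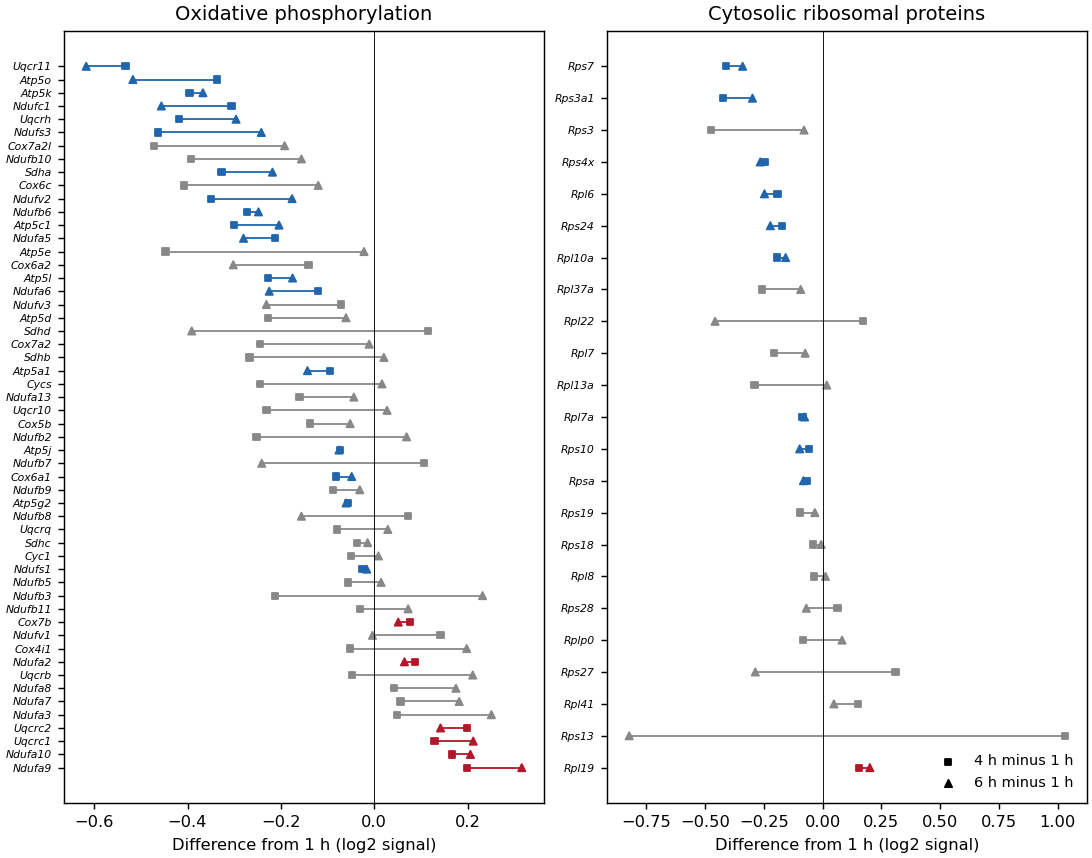
Log2 difference from 1 h at 4 h (squares) and 6 h (triangles) for each measured gene of oxidative phosphorylation (left) and of the cytosolic ribosome (right), with genes lower by the rule in blue, higher in red and others in grey. On the left 18 of 54 genes are blue and 6 red, and on the right 9 of 23 are blue and 1 is red.

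Haemoglobin transcripts, which report blood in the tissue, had their highest signal at 1 h as well. Hba-a1 had 3105, 2378 and 2220 and met the rule at -0.435 log2, and Hbb-b2 had 514.5, 422.5 and 319 and did not meet it. Of the 4 blood markers measured, Camp, a neutrophil peptide, was higher with 199.1, 356 and 430, and Bpgm had 750, 674 and 854. The 1 h signal of Camp lay under the filter value. The part of blood or RNA quality in the differences of the mitochondrial and ribosomal genes was not tested.

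Antioxidant and proteasome genes had members on both sides. Of 29 glutathione and oxidative stress genes 6 were lower and 3 higher, 31.0% counted against 34.9% of all genes, with a median of -0.07 log2. After median centring 9 of them were lower and 2 higher, beside 1353 and 440 of 4880 probe sets. Gpx4, the peroxidase of membrane lipids, had 1620, 1007 and 1178, and the mitochondrial Prdx3 was lower too, whereas Gpx1, the cytosolic peroxidase, had 528, 896 and 847 and was higher. Of 34 proteasome genes 4 were lower and 4 higher, which is 23.5% counted against 34.7% of all probe sets, with a median of -0.07. After median centring 13 were lower and 1 higher, beside 1353 and 440 of 4880 probe sets. Their median was then -0.19, against -0.14 over all probe sets. Psmd8 had 1108, 753 and 888, but Psmb5, a catalytic subunit, had 1757, 1262 and 1450 on one probe set and 334, 452 and 396 on the dimmer, counted in opposite directions.

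Cholesterol synthesis genes had a median of -0.23 log2 over 10 genes, the lowest of the lists on the mean of the later arrays, with 3 lower, 0 higher and 7 that did not meet the rule. The median was -0.06 at 4 h, where several other lists had a lower one, and -0.20 at 6 h. Sqle, squalene epoxidase, had 952, 712 and 564. Msmo1, a sterol methyl oxidase, had 785, 590 and 612, and Nsdhl, of the same demethylation steps, had 602, 520 and 473. Fdps, which makes farnesyl diphosphate, had 670, 691 and 810 and did not meet the rule. The share of lower members, 3 of 10, stands beside 17.0% over all probe sets.

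Glycolysis genes had 2 higher and 2 lower of 15, 26.7% counted against 34.9% of all genes, and a median of 0.02 log2. After median centring 0 were higher and 4 lower. Hk1 and Ldhb, a lactate dehydrogenase subunit with 1565, 1216 and 1282, were lower, while Aldoa, an aldolase, was counted as higher with 11180, 11570 and 11383. Chaperones had 4 higher and 5 lower of 39, 23.1% counted, and a median of 0.02. After median centring 1 was higher and 9 lower, beside 440 and 1353 of 4880 probe sets. The cytosolic Hsp90aa1 had 18242, 26257 and 22138 and was higher. The mitochondrial Hspa9, with 3150, 2211 and 2416, the chaperonin subunit Cct7, with 2592, 1913 and 1774, and Dnajb9, of the endoplasmic reticulum, with 565.5, 376 and 385, were lower. Genes of the unfolded protein and integrated stress responses had 2 higher and 3 lower of 16, 31.2% counted. Their median of 0.12 fell to -0.01 after median centring. Psat1, an enzyme of serine synthesis, had 2179, 1574 and 1581.

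Immediate early genes, induced within minutes of neuronal activity, had 4 higher and 3 lower of 23, 30.4% counted against 34.9% of all genes. Their median was 0.16 log2 on the mean, 0.145 at 4 h and 0.01 at 6 h. Fosb had signals of 399, 812 and 691.5, 0.91 log2 higher. Gadd45g, a growth arrest gene, had 184.9, 345.5 and 487, and Gadd45b had 318.5, 451 and 417. Of the higher genes, Gadd45g and Per1 had 1 h signals under the filter value of 285.8. They were tested only because their later signals were high. Bdnf, the neurotrophin, was lower with 2865, 2514 and 2392, and so were the phosphatase gene Dusp1, with 809, 709 and 692, and Klf6, with 409, 355 and 370. Fos, with 291.5, 412.5 and 271, and Egr1, with 2055, 1716 and 2019.5, did not meet the rule, because only the 4 h array stood off. No early gene passed limma.

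Clock genes had 3 higher and 2 lower of 14, 35.7% counted against 34.9% of all genes, and a median of 0.01 log2. Per1, a repressor of the clock loop, had 269.8, 407.5 and 389, and Tef, an output factor, had 1977, 2474 and 2475. The 1 h signal of Per1 lay under the filter value, so it could be counted only as higher. Usp2, a clock-controlled deubiquitinase, was higher on both of its probe sets by 0.145 and 0.18 log2, with 1875, 2115 and 2031 on the brighter. The repressor genes Cry1, with 739, 530 and 568.5, and Bhlhe40, with 1183, 833 and 822.5, were lower. Arntl, which encodes BMAL1, had 532, 679 and 580 and Dbp had 621, 520 and 574.5, and neither met the rule. The labels give no clock time for the samples.

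Glucocorticoid-responsive genes had 5 higher and 3 lower of 20, with a median of -0.00 log2. Fkbp5, a co-chaperone of the receptor, had 787, 1058 and 1108, and Agt, the angiotensin precursor, had 451, 634 and 683, both higher. Gadd45g and Per1, with 1 h signals under the filter value, were also among the 5 higher genes. Sgk1, a kinase induced by steroids, had 963, 645 and 763, and Mt2, a metallothionein, had 16637, 15307 and 15650, both lower. Of 6 NF-kappaB genes only Relb met the rule, 16.7% counted, with signals of 231.8, 318.5 and 435. It lost this place after quantile normalization and after median centring. The 1 h signal of Relb lay under the filter value.

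Synaptic genes were counted in both directions. Of 23 genes of synaptic vesicles and release 7 were higher and 6 lower, with a median of 0.10 log2. Rab3a, a GTPase of vesicle docking, had signals of 458, 724 and 768. Syt1, the calcium sensor of release, had 722, 1024 and 1016, with 3671 on the 2 h array. Nsf, the ATPase that disassembles fused complexes, had 6213, 10250 and 8311. Pclo, a scaffold of the active zone, had 2848.5, 1819 and 2128 and was lower, as was Vamp4, with 1116, 896 and 854. Thus 56.5% of the list was counted, against 34.7% of all probe sets, on opposite sides of 1 h. After median centring 2 were higher and 6 lower, with a median of -0.03.

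Glutamate receptor and postsynaptic genes had 4 higher and 0 lower of 17, 23.5% counted against 34.9% of all genes. Their median of 0.09 log2 turned to -0.03 after median centring, where 0 were counted. Gria2, an AMPA receptor subunit, had 9066, 11817 and 10768 on its brightest probe set and 556.5, 795 and 688 on the dimmest tested, but 1219, 947.5 and 1323 on another. Camk2b, a kinase of synaptic plasticity, had 7287, 8422 and 8014. Of 22 CREB and memory kinase genes 7 were higher and 6 lower, 59.1% counted. After median centring 2 were higher and 11 lower, beside 440 and 1353 of 4880 probe sets. Their median was then -0.18, against -0.14 over all probe sets. Prkaca, a catalytic subunit of protein kinase A, had 1401, 1984 and 1833 and was higher, while Prkacb, the other catalytic subunit, had 4518, 3987 and 3725 and was lower. Map2k1, a kinase of the ERK pathway, had 1590, 1909 and 2152.5, and Crebbp, a CREB coactivator, had 1598, 1375 and 1220.

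Of 14 interneuron markers measured, 3 were higher and 4 lower. The peptide gene Npy had 2284, 3106 and 2910, Penk had 1874, 2098 and 2174, and Sst had 11705.5, 12619 and 12611, all higher. Pvalb, the calcium buffer of fast-spiking cells, had 4273, 3350 and 3579.5, Cort, a somatostatin-like peptide, had 1273, 1020 and 1107, and Gad1 and Slc32a1, which make and load GABA, were lower by 0.12 and 0.17 log2. The last of these lost its place after quantile normalization. GABA genes as a list had 0 higher and 2 lower of 8 and a median of 0.03 log2, the 2 being Gad1 and Slc32a1 again.

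Over 5 markers of choroid plexus and ependyma the median was 0.34 log2, the highest of the lists, with 3 higher and 0 lower. With dimmer probe sets admitted it was 0.10 over 7 genes at the 40th percentile and 0.06 over 14 without a filter, below the 0.23 of CA3 markers at both. The 3 higher were Msx1, with 362, 590 and 591, Foxj1, a factor of ciliated cells, with 289.8, 371 and 382, and Lbp, with 268.6, 347 and 330.5. The 1 h signal of Lbp lay under the filter value. Ttr, the defining transcript of the choroid plexus, was below the filter and did not follow them, with 222, 107.5 and 356. CA1 pyramidal markers had 2 higher and 2 lower of 10 with a median of 0.03, and Man1a, a mannosidase, was the most different with 1299, 927 and 1023.5. CA3 markers had 1 higher, Socs2 with 478, 757 and 744, and 1 lower, Elavl2 with 437, 308 and 285, of 7, 28.6% counted. Thalamus and habenula markers had 1 higher and 0 lower of 7, 14.3% counted, the higher one being Cplx1 with 1139, 1278.5 and 1259.

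Of the glial and vascular lists, astrocyte markers had 3 higher and 6 lower of 25, 36.0% against 34.9% of all genes, with a median of -0.01 log2. After median centring, where 440 of 4880 probe sets were higher and 1353 lower, 2 of the markers were higher and 10 lower. Among these, Id4, a transcription inhibitor, had 1426, 964.5 and 1065, and Gpr37l1, a receptor of astrocytes, had 2137, 2675 and 2736. Oligodendrocyte markers had 0 higher and 2 lower of 14, 14.3% counted, with the brighter probe set of Mbp at 7791.5, 7979 and 7387. Microglia markers had 2 and 2 of 14, 28.6% counted, with Cx3cr1, the fractalkine receptor, at 273, 419.5 and 404. The 1 h signal of Cx3cr1 lay under the filter value. Endothelial and pericyte markers had 1 and 2 of 9, 33.3% counted, led by Tfrc, the transferrin receptor, with 1483, 1228 and 1180. Meningeal markers had 1 and 0 of 10, with Ptgds, a prostaglandin synthase, at 6033, 7553 and 6964.5 on 1 of its 3 probe sets.

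**Figure D5:**
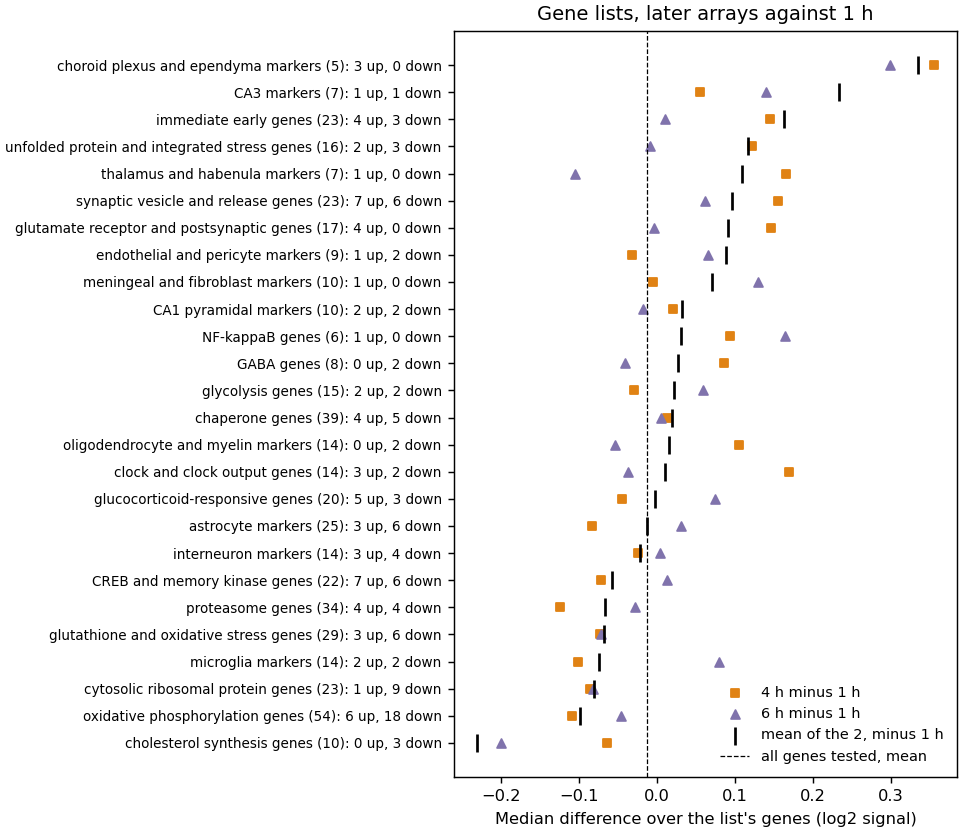
Median log2 difference from 1 h over the genes of each list at 4 h (orange squares), at 6 h (purple triangles) and for their mean (black bars), with the number measured in brackets and the numbers higher and lower by the rule; the dashed line marks all genes tested. The medians run from -0.23 for cholesterol synthesis to 0.34 for choroid plexus and ependyma markers.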

How the data were processed

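Each deposited table holds a linear intensity for every probe set. The program that computed it is not named in the labels used here, but trimmed means (2% off each end) were equal across arrays, as after scaling. Values of the 1, 4 and 6 h arrays were floored at their pooled 20th percentile (36.4), filtered on a mean log2 at or above their pooled 60th percentile (285.8) and used without further normalization. No tested value lay at the floor. A probe set with a 1 h signal under the filter value passed only where its later mean was higher. Such a probe set could be counted only as higher. Of the non-control probe sets, 10833 have 1 symbol, of which 10817 were updated through gene identifiers, 396 have several and 1193 have none. limma 3.58.1 in R 4.3.3 (mean-dependent variance prior, two-sided) was fitted over all tested probe sets and was tested on simulated data. A gene entered a list through its brightest tested probe set, and 26 of 29 lists had at least 5 measured genes. Dentate gyrus, striatum and blood markers had fewer.

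Named were probe sets with 1 symbol that met the rule: the 10 largest mean differences each way, the 6 largest each way in the 1626 brightest, up to 10 genes each way whose probe sets all met it, the 2 largest in each list, and 6 tissue markers; 1 gene so named is not reported here. Other list members were picked by their values. The members and lists were chosen with earlier results of these data known. Alternatives varied floor, filter, normalization, probe set type, rule, fold minimum, array set apart, variance prior and arrays used. Precision is limited by 1 array per hour, and no batch is recorded in the sources used here.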

Additional observations from a re-analysis of the deposited data

How the results depend on the processing

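Moving the floor to the 10th or 30th percentile changed no count. With the filter at the 40th percentile 1391 probe sets were higher, with 176 and 32 at least 2-fold higher and lower, and limma called 0. At the 80th percentile the rule counted 884, 396 higher and 488 lower, with 3 and 1 at least 2-fold, and limma called 9, from fewer probe sets that held none of the original 4. Without a filter it counted 3605, 1994 higher and 1611 lower, with 469 and 259 at least 2-fold, and limma called 0. Quantile normalization left 1 at least 2-fold lower and 0 limma calls. Median centring gave 440 higher and 1353 lower, 15 and 11 at least 2-fold and 0 limma calls. It also turned Plpbp on its brighter probe set (-0.0302 log2), Ruvbl1 on its dimmer probe set (-0.00155), Snap25 (-0.0352) and Wfs1 (-0.00178). With a difference of the means as the criterion 6 were at least 2-fold lower. A 1.5-fold minimum left 207, 133 higher and 74 lower. With the 4 h or 6 h array set apart 14 and 8 were at least 2-fold lower. Without the 4 h or the 6 h array the remaining later array was at least 2-fold above 1 h for 40 to 46 probe sets and below it for 28 to 30, and neither the rule nor limma can be computed. limma called 0 with one variance prior and 0 with the 2 h array added. The cause of these shifts was not tested, apart from the number of probe sets under each filter. Of 113 named probe sets compared after quantile normalization, 106 still met the rule in the same direction, and of 114 after median centring 96 did. The median kept its sign under every alternative that could be computed in 8 of 26 lists: among them oxidative phosphorylation (-0.22 to -0.05), ribosomal proteins (-0.205 to -0.06) and cholesterol synthesis (-0.35 to -0.06). No paired analysis was possible because each hour has 1 sample.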
